A study of Mus musculus with 17 samples.

Results

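The epidermal growth factor (EGF) family system was followed through 10 members in mouse neural retinal progenitor cells (mNRPCs). The members were picked by gene symbol from the 18836 genes listed in at least 1 library. They comprised 3 receptors (Egfr, Erbb2 and Erbb3), 6 ligands (Hbegf, Areg, Ereg, Tgfa, Btc and Nrg1) and the receptor inhibitor Errfi1.

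The mNRPCs came from the neural retina of adult C57BL/6 mice and had been propagated in basic medium (BM) with bFGF and CHIR99021. The cells were then kept in BM, in BM with bFGF (B), in BM with CHIR99021 (C), or in BM with both factors (BC). bFGF is a growth factor that acts through FGF receptors, and CHIR99021 inhibits the kinase GSK-3. RNA was sequenced on days 1, 3, 5 and 7 of each treatment and in a day 0 control, with 1 library per treatment and day and 17 libraries in all. The study's text describes day 0 in one place as cells in BM and in another as cells before treatment, and no treatment is given for it in the labels. None of the media of the 4 treatments was described as holding added EGF. The study's results do describe a first culture medium that held EGF as well, before single factors were taken out. Its methods name only bFGF and CHIR99021, and whether the sequenced cells had met added EGF is not stated.

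EGF family ligands are made as membrane-anchored precursors, and proteases of the ADAM group shed them from the cell surface. Hbegf, Areg, Ereg, Tgfa and Btc bind Egfr, whereas Nrg1 binds Erbb3 and Erbb4. Erbb2 has no known ligand and is the preferred dimer partner of the other receptors, and the activated receptors signal through RAS and ERK, a cascade that FGF receptors use as well. In the retina, Hbegf and Egfr are best known for the proliferative response of Müller glia to injury.

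Levels are given as FPKM, the deposited number of fragments scaled to transcript length and to the mapped fragments of the library. The total expected count per library, that is the fragments assigned to genes by the authors' program, ranged from 17571973 to 19428744. Pax6, Six3, Sox2, Nes and Hes1 were listed in all 17 libraries, whereas the progenitor gene Rax did not exceed an FPKM of 0.07. The summed FPKM of 5 fibroblast and pericyte markers was 15.9 to 161.6 without bFGF and 7.74 to 38.6 with it, and its part in the results below was not tested. Of that list, Col1a1, Pdgfra, Pdgfrb and Dcn were present and Lum was at or near 0. The sum of 8 progenitor markers also differed, at 149.5 to 403.9 without bFGF and 96.1 to 206.6 with it, as did that of 5 neuron markers, at 3.84 to 14.4 without bFGF and 11.9 to 23.7 with it, of which Rbfox3 and Elavl3 did not exceed 0.04. Of 5 Müller glia markers (summed FPKM 15.98 to 191.3 without bFGF and 20.8 to 81.6 with it), Slc1a3 and Rlbp1 were at or near 0. In edgeR, the log2 fold change with bFGF was 1.45 for Gap43, 1.37 for Syn1 and 0.31 for Tubb3 (adjusted p = 0.239). It was 0.70 for Glul and -0.68 for Apoe. The part of these lists was not tested either. In such bulk libraries, fewer cells of a type and less RNA per cell cannot be told apart.

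The effect of each factor was taken from edgeR's quasi-likelihood test on the expected counts of the 16 cultured libraries, with day, bFGF and CHIR99021 as additive terms. A gene passed where its Benjamini-Hochberg adjusted p was under 0.05. With 1 library per treatment and day, the spread in this test is the departure of the libraries from additivity, and culture-to-culture spread was not measured. Of the 10 members, 9 had a mean FPKM of at least 1 and entered the test, and Tgfa did not. Separation of groups and counts of matched pairs of libraries are described gene by gene, and their share over all genes was not counted.

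**Figure D1:**
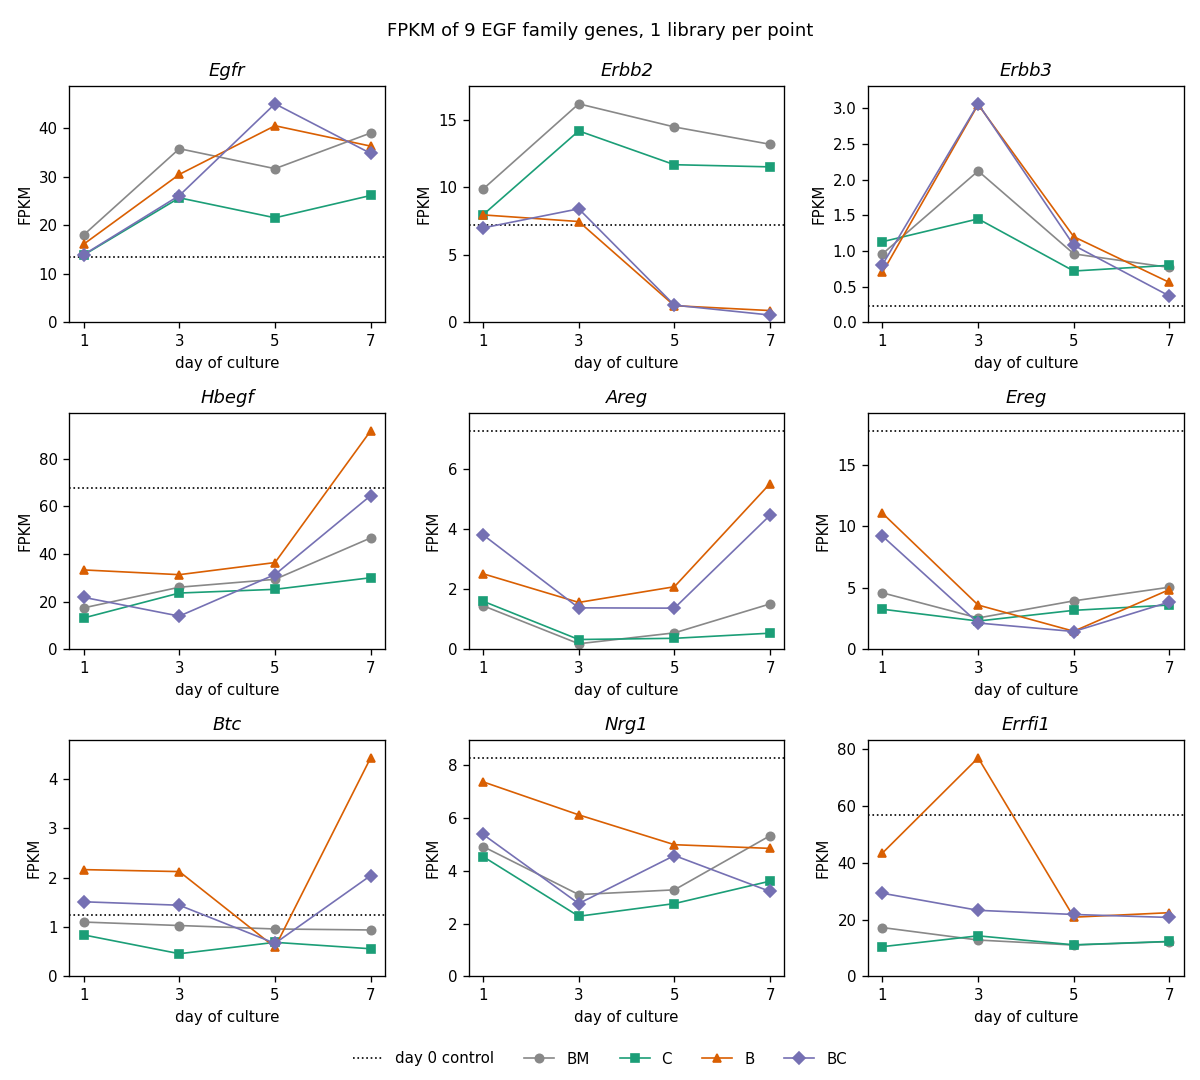
FPKM (y axis, linear, from 0) against day of culture (x axis) for the 9 members that entered the test. Each point is 1 library, colours and symbols mark BM, C, B and BC, and the dotted line is the day 0 control. Erbb2 in B and BC ended below 1 on day 7, whereas Areg in B and BC lay above BM and C on each day.

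Among the receptors, Erbb2 showed the largest change. Erbb2 (chr11:98412484-98437716 in mm10) had an FPKM of 7.18 in the day 0 control. In BM it was 9.86, 16.2, 14.4 and 13.2 on days 1, 3, 5 and 7, and in C it was 7.96, 14.2, 11.7 and 11.5. In B it was 7.95, 7.46, 1.24 and 0.88, and in BC it was 6.99, 8.40, 1.28 and 0.55. From day 3 on, the libraries with bFGF therefore lay below those without it and the groups did not overlap. How many of all genes separated in this way was not counted. Those that passed as lower with bFGF in edgeR were 25%, 38.6% and 39.6% of all genes on days 3, 5 and 7. On day 7 the FPKM in BM was 15.0 times that in B, and in C it was 20.9 times that in BC. The expected count was 1215 in BM and 81 in B on that day. Over days 1 to 7, the log2 fold change with bFGF was -1.81 (SE 0.43, adjusted p = 0.00282 in edgeR), and Erbb2 was lower in 8 of 8 pairs of libraries matched for day and CHIR99021.

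Day by day, the edgeR log2 fold change of Erbb2 was -0.17 on day 1 (adjusted p = 0.415), -0.83 on day 3, -2.92 on day 5 and -3.57 on day 7 (adjusted p = 4.06e-09). The test of a difference between the days gave an adjusted p of 5.37e-07. The files list 1 transcript for Erbb2.

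Erbb3, which binds neuregulins and has a weak kinase of its own, was the least abundant of the 3 receptors. Its FPKM was 0.23 at day 0 and was higher in each of the 16 cultured libraries. It was 0.96, 2.12, 0.96 and 0.77 in BM and 1.13, 1.45, 0.72 and 0.80 in C on days 1, 3, 5 and 7. In B it was 0.70, 3.05, 1.20 and 0.56, and in BC it was 0.81, 3.06, 1.08 and 0.37. The highest level of each treatment was on day 3. Over all days Erbb3 did not pass (log2 fold change 0.31, SE 0.21, adjusted p = 0.209 in edgeR), but it did with quantile normalization (0.38, adjusted p = 0.0212 in limma) and without day 1 (0.54, adjusted p = 0.0448). In edgeR it rose with bFGF by 0.88 on day 3 and by 0.89 on day 5. The fourth receptor, Erbb4, did not exceed an FPKM of 0.02 in any library.

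The total level of Egfr, the receptor of most ligands of the family, did not pass for bFGF over days 1 to 7 in edgeR. Its FPKM was 13.6 at day 0. In BM it was 18.1, 35.8, 31.7 and 39.1 on days 1, 3, 5 and 7, and in C it was 13.9, 25.7, 21.6 and 26.2. In B it was 16.1, 30.5, 40.6 and 36.4, and in BC it was 14.0, 26.2, 45.1 and 34.9. The ranges with and without bFGF overlapped, and Egfr was the most abundant of the receptors in every library. The edgeR log2 fold change over all days was 0.15 (SE 0.13, adjusted p = 0.297), and on day 5 alone it was 0.66 (adjusted p = 0.00552). These estimates rest on counts and take no account of the transcript length, which changed for Egfr as described below. With the gene length of each library as an offset, the estimate over all days was 0.45 (adjusted p = 0.0238 in edgeR).

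The form of the Egfr transcript differed with bFGF. The files list 2 Egfr transcripts, a full-length one of 28 exons and 1210 codons, and a short one of 16 exons and 655 codons, without the stop. In the short form, exon 16 reads past its splice donor and the reading frame stops within what is otherwise intron. The product annotated for it ends before the membrane-spanning and kinase parts of the receptor. The sequences around this point are shown because they tell the forms apart, in GENCODE M21 on GRCm38 (the mm10 assembly), plus strand. Lower case marks the 30 bases that the forms share, and capitals mark the 43 bases that follow in only one of them.

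short form: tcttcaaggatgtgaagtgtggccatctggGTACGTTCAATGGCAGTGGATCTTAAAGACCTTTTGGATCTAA

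full-length form: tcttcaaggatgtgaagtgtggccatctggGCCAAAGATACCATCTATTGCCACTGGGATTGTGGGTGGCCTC

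The short form runs through chr11:16887156-16887228 without a break, and its capitals end with the stop codon. The full-length form joins chr11:16887156-16887185 to chr11:16889913-16889955, and its capitals read on into the exon that leads to the membrane-spanning part.

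The files give no count for each form, but they do give a gene length for each library, which is the mean over the transcripts weighted by their estimated abundance. For Egfr this length was 5484 bases at day 0, and it stayed between 5175 and 5543 bases in BM and C. With bFGF it was 5361, 4954, 3505 and 3327 bases in B and 5531, 5065, 3902 and 3347 bases in BC on days 1, 3, 5 and 7. The listed length thus neared the 2943 bases of the short form, in B and in BC alike.

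With 5957 bases for the full-length form, its length up to the gene end that RefSeq gives, the short form made up 13.8% to 26.0% of Egfr transcripts in the day 0 control, BM and C. It made up 19.8%, 33.3%, 81.3% and 87.3% in B and 14.1%, 29.6%, 68.2% and 86.6% in BC. On day 7 the FPKM of the full-length form was 30.9 in BM and 4.63 in B, a ratio of 6.67, and 19.7 in C and 4.68 in BC, a ratio of 4.21. The short form was at 8.20 in BM and 31.7 in B, and at 6.48 in C and 30.2 in BC. The total on day 7 was 36.4 in B and 39.1 in BM, and 34.9 in BC and 26.2 in C, while the share of the full-length form fell. With the listed length taken into account, the edgeR log2 fold change of Egfr on day 7 was 0.68 (adjusted p = 0.0015). Without it, the estimate was 0.03 (adjusted p = 0.879 in edgeR). The ratios of the full-length form do not depend on the length assumed for it, but the shares and the short form's levels do. All of these values, the ratios included, rest on the 2943 bases that GENCODE gives for the short form. No other length was tried for that form. With the 10208 bases of the GENCODE transcript, the short share on day 7 was 67.2% in BM and 94.7% in B.

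**Figure D2:**
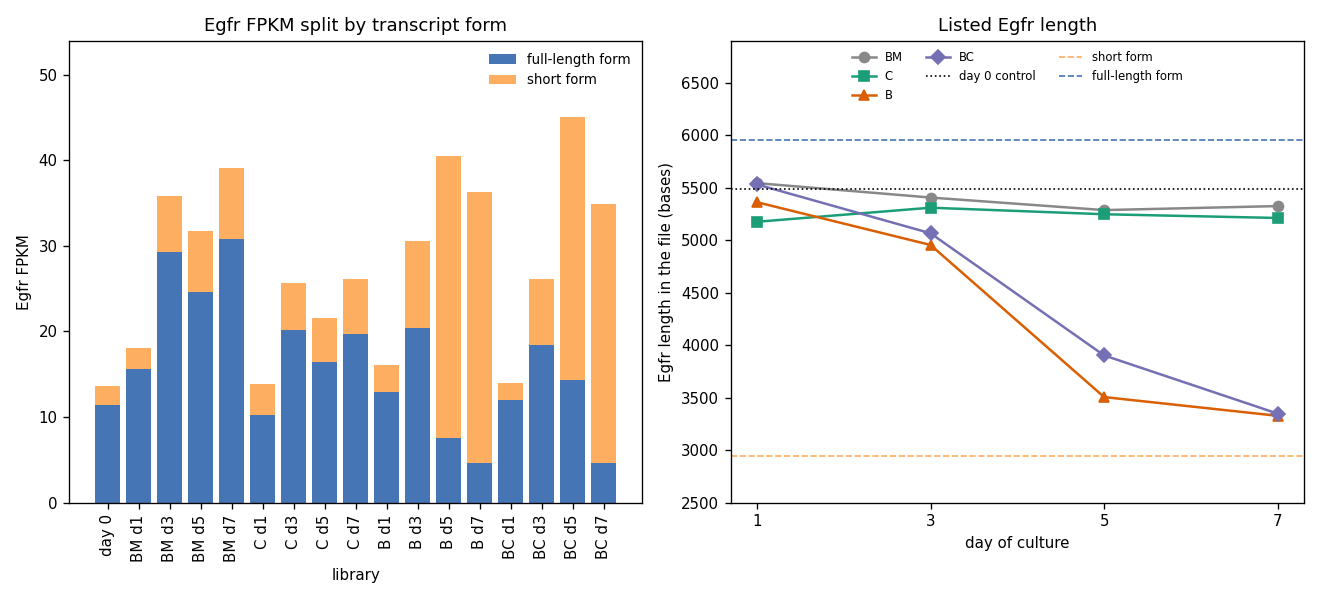
Left, FPKM of Egfr (y axis) in each of the 17 libraries (x axis), stacked by form. Right, listed Egfr length in bases (y axis, not from 0) by day (x axis), with dashed lines at the 2 transcript lengths and a dotted line at day 0. The lines of B and BC fell to 3327 and 3347 bases on day 7 while those of BM and C stayed between 5175 and 5543 bases.

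Few genes changed in listed length as Egfr did. Between B and BM on day 7, its log2 ratio of listed length was -0.68, the 40th lowest of 8199 genes with more than 1 transcript, against a median of -0.001 over those genes. Between BC and C it was -0.64, the 49th lowest of 8201. Both ratios were at least as low as those of Egfr in 34 of 8197 genes (0.415%). These genes were taken whether or not the lengths of their transcripts differ enough to allow so low a ratio. The listed length of Nrg1, for which the files hold 25 transcripts, fell as well, from 6499 bases in BM to 4187 in B and from 6517 in C to 3818 in BC. That of Nrg2, another gene of the family, fell from 3573 bases in BM to 2885 in B and from 3396 in C to 2771 in BC. That of Errfi1 was 3040 and 3039 bases in BM and B. How far the 2 transcripts of Errfi1 differ in length is not given here, so its length may have had little room to move. The length of Egfr was singled out after its values were seen, the split rests on the estimates of the authors' program, and no test was made of it.

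**Figure D3:**
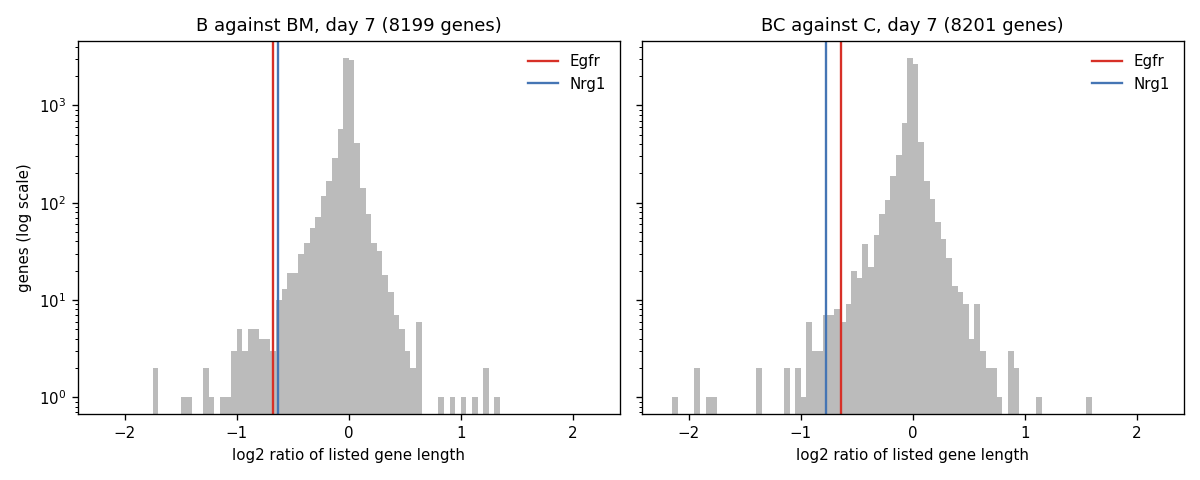
Histograms of the log2 ratio of listed gene length (x axis) over genes with more than 1 transcript, with the number of genes on a log scale (y axis), for B against BM and BC against C on day 7. Vertical lines mark Egfr and Nrg1, which both lie in the lower tail.

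Of the ligands, Areg, Btc and Hbegf rose with bFGF. Amphiregulin (Areg, chr5:91139599-91148432) is a ligand of Egfr that ERK signalling itself is known to induce. Its FPKM was 7.25 at day 0, higher than in any cultured library. It was 1.45, 0.19, 0.55 and 1.51 in BM and 1.60, 0.33, 0.37 and 0.54 in C on days 1, 3, 5 and 7. In B it was 2.51, 1.56, 2.08 and 5.50, and in BC it was 3.80, 1.38, 1.37 and 4.45. On each day both libraries with bFGF were above both without it. The edgeR log2 fold change was 2.18 (SE 0.29, adjusted p = 0.000134), with Areg higher in 8 of 8 pairs. The counts behind it were small, from 4 to 36 without bFGF and from 29 to 120 with it. By day, the edgeR log2 fold changes were 1.14 (adjusted p = 0.0613), 2.58, 2.35 and 2.83.

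Betacellulin (Btc, chr5:91357261-91402994), which binds Egfr and Erbb4, was low throughout. Its FPKM was 1.24 at day 0. It was 1.10, 1.03, 0.96 and 0.94 in BM and 0.84, 0.46, 0.69 and 0.56 in C on days 1, 3, 5 and 7. It was 2.16, 2.12, 0.59 and 4.42 in B and 1.51, 1.44, 0.67 and 2.04 in BC. The 2 libraries with bFGF were above those without it on days 1, 3 and 7, and on day 5 they were below them. Over all days the edgeR log2 fold change was 1.29 (SE 0.30, adjusted p = 0.00235), with 6 of 8 pairs higher, and it was 0.08 on day 5 and 2.61 on day 7.

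Hbegf, the heparin-binding ligand, was the most abundant ligand in every library. Its FPKM was 67.7 at day 0. It was 17.4, 26.1, 29.4 and 46.7 in BM and 13.2, 23.7, 25.2 and 30.1 in C on days 1, 3, 5 and 7. In B it was 33.3, 31.4, 36.4 and 91.7, and in BC it was 21.9, 14.0, 31.4 and 64.5. BC on day 3 was below C on that day, and the other 7 pairs were higher with bFGF. The edgeR log2 fold change over all days was 0.79 (SE 0.20, adjusted p = 0.00385), from -0.11 on day 3 to 1.58 on day 7.

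Epiregulin (Ereg, chr5:91074617-91093649), which binds Egfr and Erbb4, changed direction over time. Its FPKM was 17.8 at day 0. It was 4.60, 2.56, 3.95 and 5.06 in BM and 3.27, 2.31, 3.18 and 3.61 in C on days 1, 3, 5 and 7. It was 11.1, 3.61, 1.48 and 4.87 in B and 9.21, 2.15, 1.46 and 3.86 in BC. With bFGF it was thus higher on day 1, by 1.46 on the edgeR log2 scale (adjusted p = 0.000386), and lower on day 5, with a log2 fold change of -0.83 (adjusted p = 0.000556), which was -0.13 with quantile normalization (adjusted p = 0.409 in limma). On day 7 the log2 fold change was 0.56 (adjusted p = 0.00382), but 0.02 (adjusted p = 0.881) without the TMM factors described below. Over all days it did not pass (0.40, SE 0.25, adjusted p = 0.165 in edgeR), but it did with quantile normalization (0.53, adjusted p = 0.0105 in limma). The days differed (adjusted p = 1.9e-05 in edgeR).

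Nrg1, the neuregulin that binds Erbb3 and Erbb4, had an FPKM of 8.28 at day 0. It ranged from 3.10 to 5.33 in BM, from 2.28 to 4.54 in C, from 4.85 to 7.37 in B and from 2.76 to 5.38 in BC. The ranges overlapped, and the edgeR log2 fold change with bFGF over all days was 0.22 (SE 0.12, adjusted p = 0.134). This estimate was -0.07 without the TMM factors and 0.68 (adjusted p = 0.000871) with the listed gene length taken into account, and Nrg1 passed in the 3 forms of limma, which start from FPKM, at 0.31 to 0.73. Tgfa was listed in 8 of 17 libraries, at an FPKM of at most 0.05 and a count of at most 4.01, and in no library of B or BC after day 1.

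The FPKM of the 5 Egfr ligands Hbegf, Areg, Ereg, Btc and Tgfa summed to 94.0 at day 0. After 1 day BM had a sum of 24.6 and C one of 18.9, whereas B reached 49.1 and BC 36.4. By day 7 the sum had risen to 54.3 for BM, 34.8 for C, 107 for B and 74.9 for BC. Hbegf made up from 60.0% of it, in BC on day 1, to 90.0%, in BC on day 5. Ereg held 25.3% in BC on day 1 and 3.65% in B on day 5.

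**Figure D4:**
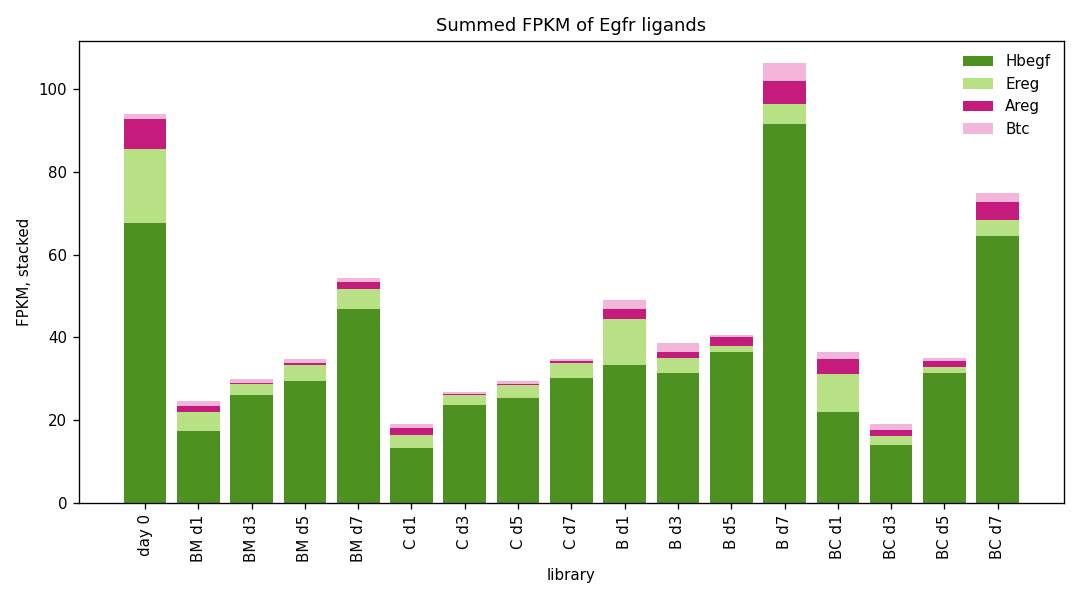
Stacked FPKM (y axis, from 0) of Hbegf, Ereg, Areg and Btc in each of the 17 libraries (x axis), with Tgfa left out for its low level. Hbegf makes up most of each bar, and the bars of the day 0 control and of B and BC on day 7 are the 3 tallest.

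Errfi1 (chr4:150853796-150868889), also called Mig6, encodes a feedback inhibitor that binds the kinase part of active Egfr. Its FPKM was 56.8 at day 0. It was 17.2, 12.8, 11.1 and 12.3 in BM and 10.5, 14.3, 11.1 and 12.3 in C on days 1, 3, 5 and 7. In B it was 43.5, 77.0, 20.9 and 22.4, and in BC it was 29.3, 23.3, 21.8 and 20.8. All 8 libraries with bFGF were above all 8 without it, and the share of all genes that separated in this way was not counted. The edgeR log2 fold change was 1.53 (SE 0.19, adjusted p = 8.29e-05), and it was 1.31 without the library B on day 3. By day it was 1.48, 1.88, 1.39 and 1.35, and the days were not told apart (adjusted p = 0.729 in edgeR).

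Over days 1 to 7, 4 of the 9 tested members rose with bFGF and 1 fell, which is 55.6% against 68.4% of all 11272 genes tested (34.6% higher and 33.9% lower). The share of members that passed was thus not above the background. The median log2 fold change was 0.40 over these members and -0.002 over all genes. Taken day by day, 4 members passed on day 1, all higher, against 10.7% of all genes (6.21% higher and 4.46% lower). On day 3 it was 6 members (5 higher, 1 lower) against 50.4%, with 25.4% of all genes higher and 25% lower. Day 5 had 7 members (5 and 2) against 75.8% (37.2% and 38.6%), and day 7 had 6 (5 and 1) against 78.4% (38.8% and 39.6%). The 4 members of day 1 were Ereg, Errfi1, Btc and Hbegf. The bFGF effect differed between days for 7 of 9 members, against 76.3% of all genes. Errfi1 was not among them, nor was Egfr (adjusted p = 0.0595 in edgeR), which did pass in 6 alternatives, with an adjusted p of 0.00099 to 0.035.

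**Figure D5:**
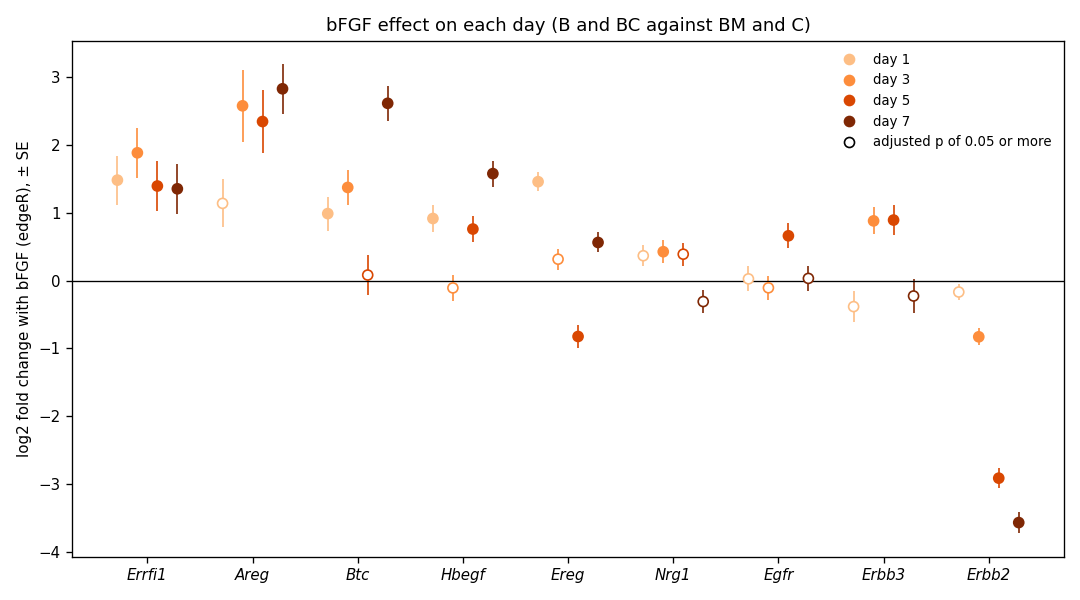
Log2 fold change with bFGF from edgeR (y axis, ± SE) on days 1, 3, 5 and 7 for the 9 tested members (x axis). Filled points had an adjusted p under 0.05. Errfi1 lay above 0 on each day, and Erbb2 moved from -0.17 on day 1 to -3.57 on day 7.

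These log2 fold changes depend on the scaling between libraries. The TMM factors, by which edgeR sets the median gene near no change, were 0.754 to 0.816 in B and BC on days 5 and 7 and 1.01 to 1.13 in the other cultured libraries. Without them the median over all genes was -0.29 and 28.2% of the genes that passed were higher with bFGF, against 50.5% with them. Errfi1, Areg, Btc and Hbegf remained higher and Erbb2 lower with bFGF over days 1 to 7 under each scaling tried. Day by day, Egfr, Erbb3 and Hbegf no longer passed on day 5 without the factors (0.22, 0.45 and 0.32), nor did Btc on day 1 (0.91, adjusted p = 0.0517 in edgeR) or Nrg1 on day 3 (0.33). Errfi1 on day 7 did not pass in limma on log2(FPKM + 1), at 0.77 (adjusted p = 0.0544). Over all days the estimate of Egfr turned to -0.14 without the factors (adjusted p = 0.318), and with listed gene length as an offset it was 0.45 (adjusted p = 0.0238).

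For CHIR99021, none of the 9 tested members passed in edgeR, against 0.337% of all genes, whereas 3 had an unadjusted p under 0.05 (Btc, Hbegf and Nrg1), as did 1126 of the 11272 genes tested. All 9 estimates were below 0, from -0.64 for Btc to -0.11 for Erbb3, and the median over all genes was 0.01. The share of all genes with an estimate below 0, or lower in 8 of 8 pairs, was not counted. Hbegf, Ereg and Nrg1 were each lower with CHIR99021 in 8 of 8 pairs, and the lowest adjusted p was 0.121, for Nrg1 (log2 fold change -0.51, SE 0.12). DESeq2 called Nrg1 (adjusted p = 0.0092) and no other member, and limma called none. On day 3, Errfi1 was at 77.0 in B and 23.3 in BC, the widest gap in the 4 pairs of B and BC. For the interaction of bFGF and CHIR99021, edgeR, DESeq2 and limma called no member, against 0.00887% of all genes in edgeR. Among the members, Egfr alone had an unadjusted p under 0.05 in edgeR and DESeq2, and none had one in limma, whereas 178 of the 11272 genes had one in edgeR.

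Each cultured library was also set against the day 0 library, which all of these differences share. On the log2(FPKM + 1) scale, a difference of at least 1 was counted, with no test. All genes here are the 11258 whose FPKM averaged 1 or more over the 17 libraries. Tgfa is counted among the 10 members but was too low to be in that set. On day 1 it was reached by 4 of 10 members in BM (against 8.93% of all genes), by 4 in C (9.46%), by 2 in B (4.33%) and by 1 in BC (4.29%). All of these were lower than at day 0, in which direction 1.78%, 2.39%, 0.622% and 0.799% of all genes passed in BM, C, B and BC. In BM and in C they were Hbegf, Areg, Ereg and Errfi1, which differed by -1.90, -1.75, -1.74 and -1.67 in BM. In B on day 1, Ereg differed by -0.64 and Errfi1 by -0.38. On day 7 it was reached by 4 members in BM (34.1% of all genes), and by 5 each in C (35.4%), B (35.1%) and BC (37.8%). Ereg was lower than at day 0 in all 16 cultured libraries. Areg was lower in all 16 as well, whereas Hbegf was above day 0 in B on day 7 by 0.43.

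Among the other genes of the family, Nrg2, a ligand of Erbb3 and Erbb4, was the only tested one. Its FPKM was 8.50 at day 0. It was 13.2, 16.6, 14.7 and 11.2 in BM and 12.9, 18.9, 14.8 and 11.4 in C on days 1, 3, 5 and 7. It was 11.1, 9.29, 3.46 and 2.20 in B and 12.2, 12.6, 3.12 and 2.26 in BC. It was lower with bFGF in 8 of 8 pairs (log2 fold change -1.19, SE 0.25, adjusted p = 0.00153 in edgeR). Egf itself ranged from 0.03 to 0.76 and was lower with bFGF in 8 of 8 pairs. These values rest on expected counts of only 2 to 47, and on day 1 the counts were 13 in B and 18 in BM, and 5 in BC and 7 in C. Nrg4 ranged from 0.09 to 0.58, and Epgn and Nrg3 did not exceed 0.12 and 0.01.

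In the lists of genes that shed the ligands and carry the signal, the counts are read against all genes tested, of which 34.6% rose with bFGF and 33.9% fell. Of 5 tested shedding genes, 2 rose, 1 fell and 2 did not pass, and their median log2 fold change was 0.07, against -0.002 over all genes. The protease Adam9 rose by 0.79 (adjusted p = 0.000367 in edgeR), Adam10 fell (-0.27, adjusted p = 0.0123), and Rhbdf1, a partner of the main ligand sheddase Adam17, rose by 0.35 (adjusted p = 0.0283). Rhbdf1 no longer passed without the TMM factors, at 0.06. Of 6 genes that turn over or inhibit the receptors, 1 rose and 5 did not pass (median -0.05). The ubiquitin ligase Cblb rose by 0.47 (adjusted p = 0.00984), or by 0.18 without the TMM factors (adjusted p = 0.232). Cbl was at -0.20 and Lrig3 at -0.13 (adjusted p = 0.265 and 0.242).

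Of 5 adaptor genes, 1 rose and 2 fell (median -0.0005). Gab1, a docking protein of receptor kinases, fell with bFGF (-1.45, adjusted p = 0.000146 in edgeR), as did the phosphatase gene Ptpn11 (-0.54, adjusted p = 0.00606). Grb2 rose by 0.33 (adjusted p = 0.00804), and by 0.04 without the TMM factors (adjusted p = 0.555). Of 10 genes of the RAS-ERK cascade, 4 rose and 3 fell (median 0.13), a share near the 68.4% of all genes that passed. They included Map2k1 (0.51, adjusted p = 0.00101 in edgeR) and Nras (0.37, adjusted p = 0.00477). Nras was at 0.08 without the TMM factors (adjusted p = 0.21).

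Of 15 tested genes known as output and feedback of ERK, 10 rose with bFGF over days 1 to 7 and none fell, with a median of 1.38 against -0.002 over all genes, of which 34.6% rose. The phosphatase gene Dusp6 rose by 2.27 (adjusted p = 4.49e-06 in edgeR), and the feedback inhibitors Spry2 and Spry4 by 1.38 and 2.77 (adjusted p = 6.81e-06 and 1e-05). Like Errfi1, each of these was higher in 8 of 8 pairs. The 5 that did not pass were Spry1 (0.43), Phlda1 (0.23), Spred1 (0.16), Egr1 (-0.38) and Fos (-0.42), with adjusted p from 0.17 to 0.556. On single days some of them did pass in edgeR, in both directions. Fos fell on day 3 (-1.49, adjusted p = 0.00012) and day 5 (-1.62, adjusted p = 9.39e-06). Egr1 fell on day 5 (-2.83, adjusted p = 0.000237) and Spred1 on day 7 (-0.39, adjusted p = 0.0107). Rises that passed were those of Egr1 on day 1 (1.90), Spred1 on day 3 (0.47) and Spry1 on day 5 (1.15). On day 7, Fos (1.07) and Phlda1 (0.93) rose as well. Over all days, Phlda1 and Spred1 turned below 0 without the TMM factors, at -0.06 and -0.13. No gene of these lists passed for CHIR99021 in edgeR.

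The promoters of Areg and Errfi1, which rose with bFGF, and of Erbb2, which fell, are shown because they hold 1 or more of 5 motifs searched. That of Btc, which rose as well, and the first start of Errfi1 held none of the 5 and are not shown. The windows span 300 bases, from 250 before to 50 after the start, and come from RefSeq on the plus strand of GRCm38. Of the 10 members, 6 matched a promoter in that table. Capitals mark the motifs found in them, the cAMP response element (CRE) TGACGTCA or a TCF/LEF motif CTTTGNA, searched on both strands.

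Areg: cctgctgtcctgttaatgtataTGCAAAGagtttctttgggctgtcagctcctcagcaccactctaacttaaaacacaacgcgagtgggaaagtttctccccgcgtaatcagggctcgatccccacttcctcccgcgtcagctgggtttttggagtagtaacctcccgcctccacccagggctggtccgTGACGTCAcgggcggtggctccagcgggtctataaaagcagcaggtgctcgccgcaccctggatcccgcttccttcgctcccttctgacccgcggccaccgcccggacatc

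Errfi1, the second start: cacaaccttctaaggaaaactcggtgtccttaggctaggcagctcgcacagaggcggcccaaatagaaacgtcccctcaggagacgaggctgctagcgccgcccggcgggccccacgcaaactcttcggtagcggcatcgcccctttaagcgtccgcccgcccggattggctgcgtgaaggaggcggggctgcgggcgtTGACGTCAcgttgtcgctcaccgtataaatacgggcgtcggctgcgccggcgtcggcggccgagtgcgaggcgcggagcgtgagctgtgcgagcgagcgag

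Erbb2: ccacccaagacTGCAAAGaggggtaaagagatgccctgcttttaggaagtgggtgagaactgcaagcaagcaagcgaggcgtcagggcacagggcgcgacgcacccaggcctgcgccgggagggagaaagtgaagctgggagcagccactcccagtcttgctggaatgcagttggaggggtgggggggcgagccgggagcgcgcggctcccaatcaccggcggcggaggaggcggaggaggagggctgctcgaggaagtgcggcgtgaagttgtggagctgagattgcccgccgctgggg

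They lie at chr5:91139349-91139648 (Areg), chr4:150854820-150855119 (Errfi1) and chr11:98412234-98412533 (Erbb2). A CRE stood in the windows of Areg and of the second start of Errfi1, and in 1.79% of 32851 promoters of this length. A TCF/LEF motif stood in those of Areg, Erbb2 and Egfr, and in 18.1% of all promoters. The ETS motif CCGGAAG was found in that of Egfr (8.86% of all promoters). Neither the AP-1 motif TGANTCA (7.81%) nor the EGR motif GCGNGGGCG (5.55%) was found in a member's window. A CRE holds no AP-1 match within itself. A match is a run of letters and not a measured binding site.

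The genes whose pattern was most like that of a member were taken over the 17 libraries by Pearson's r of log2(FPKM + 1), which is a description since the libraries share days and treatments. For Erbb2 they were Usp27x (0.991), Zfp825 and Klhl18 (0.991 each). For Egfr they were Ugcg (0.949), Fchsd2 and Usp22, and for Erbb3 they were Usp3 (0.932), Ap4m1 and Rxrb. For Areg they were 1110004F10Rik (0.945), Lsm8 and Plaur, for Ereg Rps6ka4 (0.941), Prkrip1 and Pak1ip1, and for Btc Bcl6b (0.921), Sh3kbp1 and Dhx34. For Hbegf they were Pcnp (0.909), Fosb and Tmsb4x, for Nrg1 Kpna3 (0.895), Stk39 and Tex10, and for Errfi1 Tmem200a (0.947), Slc20a2 and Nipal1. No member was among the 3 genes most like another. Areg, Ereg, Btc and Epgn are neighbours on chromosome 5, and r between Areg and Ereg was 0.612 and between Areg and Btc 0.645.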

How the data were processed

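Libraries of poly-A selected RNA were sequenced on the BGISEQ-500. Per the labels the authors used mm10, Bowtie2 and RSEM, whereas the study's methods name eXpress for the counts, and versions are not given in the sources used here. The deposited files list, for each gene, an expected count, an FPKM and a length, and leave out genes at 0, which were taken as 0. Whole numbers made up 63.9% to 66.6% of the expected counts per library. Expected counts were rounded, and the 11272 genes whose FPKM averaged 1 or more over the 16 cultured libraries were tested with edgeR 4.0.16 (R 4.3.3), TMM factors and the quasi-likelihood test, with Benjamini-Hochberg adjustment at 0.05. SE is the log2 fold change over the square root of F. Models were day + bFGF + CHIR99021, the same with their interaction, and bFGF within each day with a test of its differences between days. The scripts were tested on simulated counts. DESeq2 1.42.0, limma 3.58.1 on log2(FPKM + 1) or log2(FPKM + 0.1), other filters and scalings, and leaving out libraries were alternatives. The listed gene length as an offset, and the GENCODE length of full-length Egfr, were added after seeing the data. For Egfr the listed length was read as a mixture of 2 transcript lengths.

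All 10 members, the other family genes, and in each pathway list the 3 genes with the smallest adjusted p for bFGF were named, as were the ERK output genes that did not pass and the 3 genes most like each member. Some genes that this rule would name are not reported here. The members and lists were chosen with earlier results of these data known. Depth limits the low genes: 1 fragment more or less matters for Tgfa, for Egf with bFGF and for Areg without bFGF. The labels do not say whether libraries came from separate cultures, so p-values measure only the spread between these libraries. Figures were drawn with matplotlib 3.10.9.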

Additional observations from a re-analysis of the deposited data

Results flagged for a closer look

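The effect of bFGF differed between days 1, 3, 5 and 7 for 7 of the 9 tested members by edgeR's quasi-likelihood F test of the difference itself, against 76.3% of all genes tested. The adjusted p was 5.37e-07 for Erbb2, whose log2 fold change went from -0.17 on day 1 to -3.57 on day 7 and was below 0 in 8 of 8 pairs. For Ereg it was 1.9e-05, with 1.46 on day 1 and -0.83 on day 5. Btc had an adjusted p of 0.000613 (0.08 on day 5 and 2.61 on day 7). For Hbegf it was 0.00114 (-0.11 on day 3 and 1.58 on day 7). Erbb3 had an adjusted p of 0.00335, with 0.88 on day 3, 0.89 on day 5 and -0.38 on day 1. For Nrg1 it was 0.0321, with 0.42 on day 3 and -0.31 on day 7, and for Areg it was 0.0465, with 1.14 on day 1 and 2.83 on day 7. Under other settings the adjusted p of Nrg1 rose to between 0.0662 and 0.113 (the 3 forms of limma and gene length as an offset). That of Areg rose to between 0.0507 and 0.133 (no TMM factors, limma on log2(FPKM + 1) or log2(FPKM + 0.1), and gene length as an offset).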

How the results depend on the processing

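No fit with a replicate block was made, since each treatment and day has 1 library, and day was a term in each model. Over days 1 to 7, Areg, Btc, Errfi1, Hbegf and Erbb2 kept their direction and passed in each alternative in which they were tested. The number of members that passed for bFGF was 5, and it was 3 of the 4 tested at a mean FPKM of 5 or more, 8 with quantile normalization, and 5 to 6 when 1 library was left out. Without B on day 5 Ereg passed at 0.56, and without BC on day 7 Nrg1 passed at 0.29. With a mean FPKM of 5 or more, 2 members passed on day 1, 2 on day 3, 4 on day 5, 3 on day 7 and 2 for the differences between days. Without TMM factors 4 passed on day 5.

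For CHIR99021, 38 genes passed, against 22 with no filter, 281 with DESeq2, 72 with quantile normalization, 24 without day 1 and 1 to 28 without 1 library. DESeq2 called 1 member, Nrg1. For the interaction 1 gene passed, against 5 with DESeq2, 0 without TMM factors or with limma on any scale, 2 without day 1 and 0 to 1 without 1 library. Leaving out 1 library took the CHIR99021 estimate of Erbb2 from -0.35 to 0.026 and that of Nrg2 from -0.0081 to 0.23. Against day 0, 1 member passed 1 in B on day 1 with quantile normalization and 2 in BC on day 1 with a pseudocount of 0.1.

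These estimates turned sign, and the cause was not tested. Without TMM factors, the bFGF estimate over all days was -0.14 for Egfr, -0.071 for Nrg1, -0.057 for Phlda1 and -0.13 for Spred1. With limma it was -0.064, -0.065 and -0.13 (log2(FPKM + 1), log2(FPKM + 0.1) and quantile normalization) for Phlda1, and -0.059 and -0.067 (the first 2) for Spred1. On day 1, Egfr was at -0.016 with a mean FPKM of 5 or more, -0.0080 with DESeq2, -0.056 without TMM factors and -0.072, -0.076 and -0.052 with the 3 forms of limma. On day 5, Btc was at -0.36 without TMM factors and -0.16 and -0.33 with limma, and Nrg1 was at -0.054 without TMM factors. On day 7, Egfr was at -0.10 among genes averaging 5 or more and -0.51 without TMM factors (adjusted p = 0.0214), but at 0.68 with gene length as an offset (adjusted p = 0.0015). Erbb3 on day 7 was at 0.13 with quantile normalization, but at -0.76 without TMM factors (adjusted p = 0.0171) and -0.67 with limma on log2(FPKM + 0.1) (adjusted p = 0.0251). Nrg1 on day 7 was at 0.68 with quantile normalization (adjusted p = 0.00611) and 0.37 with gene length as an offset, but at -0.84 without TMM factors (adjusted p = 0.000461).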
